A study of Danio rerio with 12 samples.

Results

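Retinoic acid is made, carried, sensed and broken down by a small set of proteins, and 10 zebrafish genes for them were examined here, of 14850 genes listed in each expression table. They were chosen by name, for their role in the pathway, with earlier results of these data known, and all 10 are listed. They are rdh10a and aldh1a2 for synthesis, dhrs3a for the reversal of its first step, cyp26a1, cyp26b1 and cyp26c1 for breakdown, crabp2a and crabp2b for binding in the cell, and the receptors raraa and rarga. RNA-seq was made from polyA RNA of whole Ekwill embryos, pooled before extraction, in 3 libraries for each of 4 groups. Control embryos were injected with water and phenol red dye, and were collected at 6hpf (gastrulation) or 12hpf (segmentation). TALE KD embryos received, in the same dye, morpholino oligos against Prep1 (prep1.1), Pbx2 and Pbx4, homeodomain transcription factors of the TALE class, and were collected at the same stages. Morpholinos block translation or splicing, so transcript levels of the targeted genes do not measure the knockdown and were not used to check it. The controls carried no morpholino, so effects of injecting an oligo as such cannot be told apart from those of the knockdown. A whole embryo holds many cell types, and fewer cells of a type cannot be told apart from less RNA per cell.

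Retinoic acid is a diffusible signal derived from vitamin A. In vertebrate embryos Rdh10 oxidizes retinol to retinaldehyde, Dhrs3 reduces it back, and Aldh1a2, found mainly in somitic and lateral mesoderm, turns retinaldehyde into retinoic acid. Cyp26 enzymes degrade it, and the balance of source and sink along the axis patterns the hindbrain and trunk. Crabp2 proteins carry retinoic acid in the cell, and retinoic acid receptors bind DNA in pairs with RXR proteins and switch on targets, which in zebrafish include cyp26a1 and dhrs3a themselves.

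The library totals ran from 11884805 to 15031243 estimated counts at 6hpf and from 19783326 to 40924982 at 12hpf, and replicate 3 stood apart from the other libraries in both groups at 12hpf. Levels are given as CPM (counts per 1000000 of library size, scaled by TMM factors from edgeR over all 12 libraries), as a value per library or as mean ± SD of 3 libraries. CPM is not divided by transcript length, so levels are compared between libraries and not between genes. Genes were tested with edgeR's quasi-likelihood test if their counts averaged 10 or more over the fitted libraries. A gene was called at an adjusted p (Benjamini-Hochberg over all genes tested) of at most 0.01 with a fold-change of at least 1.5.

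At 12hpf the pathway genes moved in opposite directions in TALE KD embryos. The retinoic acid-producing gene aldh1a2 was higher than in controls, and the degrading genes cyp26b1 and cyp26c1 were lower. Both receptors and rdh10a showed no difference past their spread. In controls aldh1a2 fell from 6hpf to 12hpf while cyp26b1 and cyp26c1 rose, so after TALE KD these 3 lay nearer their 6hpf levels. For cyp26b1 and cyp26c1, near 0 at 6hpf, any fall would bring the level nearer. The means of dhrs3a, cyp26a1, crabp2a and crabp2b lay nearer too, without a call. For dhrs3a and crabp2a, also near 0 at 6hpf, any fall would do the same. The 12hpf controls enter both the change over time and the knockdown effect, which by itself favours such a shift. Its share over all genes was not counted. Both receptors and rdh10a also changed between the stages in controls, but showed no such shift past their spread. Whether the groups differed in developmental stage at 12hpf was not tested. All 10 genes were tested at this stage and 3 were called, where 1.55% of the 11640 genes tested were called. In the called-higher direction there was 1 gene, against 0.292% of all genes, and in the called-lower direction 2, against 1.26%. The median log2 fold-change of the 10 genes was -0.000603, and that of all genes -0.00325. With the replicate number as a block 4 of the 10 were called (all genes 4.09%), with DESeq2 4 (2.92%) and without replicate 3 of both groups 5 (6.32%).

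**Figure D1:**
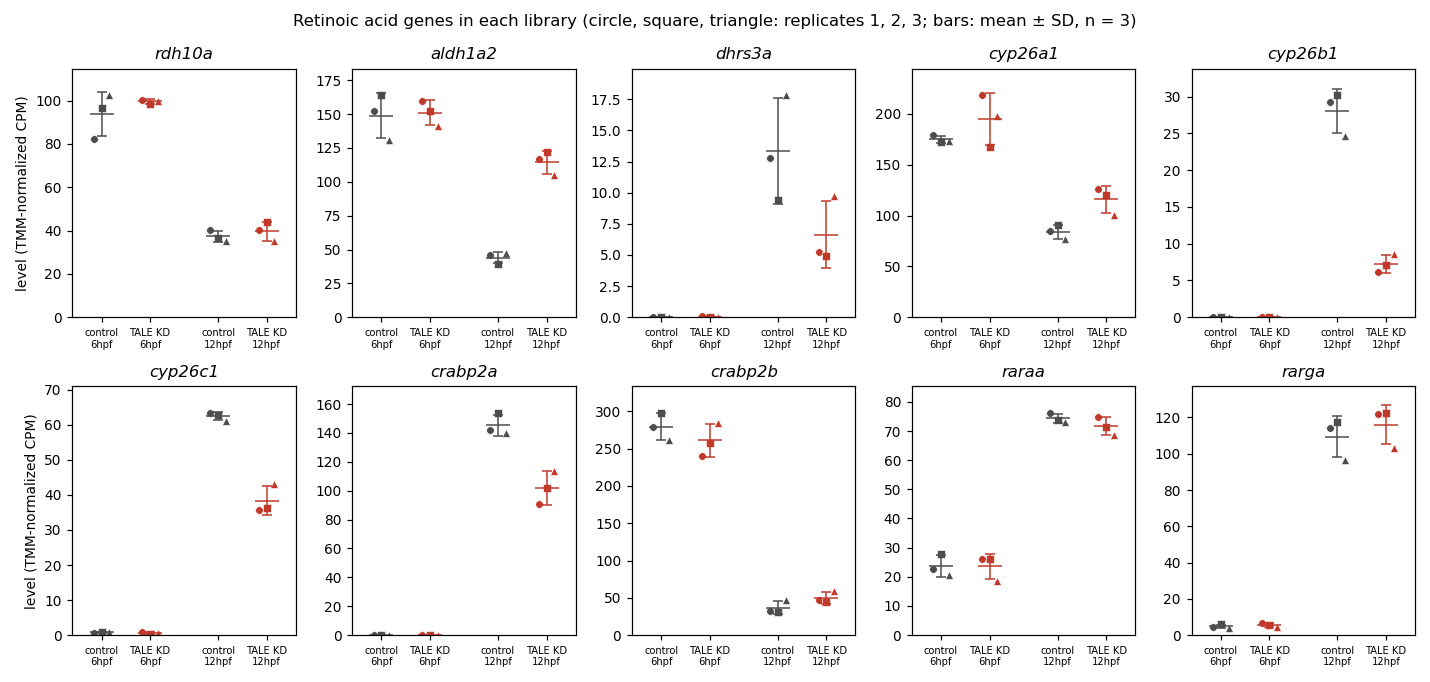
Level of each of the 10 genes (CPM, linear axes from 0, one scale per gene) in the 12 libraries, by group and stage. Symbols are replicates 1, 2 and 3 and bars are mean ± SD of 3 libraries. From 6hpf to 12hpf aldh1a2 falls to 44.1 CPM in control embryos and less far, to 114 CPM, in TALE KD embryos. By 12hpf cyp26b1 appears in both groups and reaches 28.0 CPM in control and 7.27 CPM in TALE KD embryos.

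The gene for the synthesizing enzyme, aldh1a2, read 45.7, 39.4 and 47.2 CPM in the controls (replicates 1, 2 and 3) at 12hpf, against 116.5, 122 and 105 CPM after TALE KD. Every TALE KD library lay well above every control library. The log2 fold-change was 1.36 (standard error 0.084, 2.57-fold, adjusted p = 2.80e-04, edgeR), with a 95% interval of 1.17 to 1.55. It ranked 7 by p-value among all genes tested at 12hpf. Leaving out any one library kept the call, with log2 fold-changes of 1.29 to 1.42.

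The gene rdh10a, for the enzyme of the step before it, read 40.3, 36.6 and 35.4 CPM in the controls at 12hpf, against 40.1, 43.9 and 35.2 CPM after TALE KD. The groups overlapped, and the log2 fold-change was 0.070 (95% interval -0.14 to 0.27, adjusted p = 0.669, edgeR).

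For dhrs3a, whose product turns retinaldehyde back to retinol, the controls read 12.8, 9.43 and 17.8 CPM, against 5.24, 4.89 and 9.74 CPM after TALE KD. Replicate 3 was the highest library of both groups, and TALE KD replicate 3 lay within the range of the controls. Compared replicate by replicate, the log2 ratio of TALE KD to control was -1.29, -0.95 and -0.87, lower in 3 of 3 pairs. The log2 fold-change of -1.0 (standard error 0.31) was not called (adjusted p = 0.0785, edgeR), but with the replicate number as a block it was (-1.03, standard error 0.10, adjusted p = 5.12e-05). It was also called without TALE KD replicate 3, at -1.42 on the log2 scale (adjusted p = 0.00816, edgeR). That fit called 472 of all genes, against 181 with all libraries. The other fits that left out a single library did not call dhrs3a (adjusted p 0.0890 to 0.244, edgeR).

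The 3 cyp26 genes, whose products hydroxylate retinoic acid for removal, did not share a direction at 12hpf. In zebrafish cyp26b1 and cyp26c1 are known for expression in the hindbrain, and cyp26a1 for the anterior neural plate and tail bud. The level of cyp26b1 was 29.2, 30.2 and 24.6 CPM in the controls, against 6.13, 7.15 and 8.54 CPM after TALE KD. The highest TALE KD library lay far below the lowest control. The log2 fold-change was -1.94 (standard error 0.13, 3.85-fold lower, adjusted p = 4.06e-04, edgeR), rank 10 by p-value among all genes tested. It stayed between -2.08 and -1.85 with any one library left out and was called each time.

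The fall in cyp26c1 was smaller, with 63.4, 62.8 and 61.1 CPM in the controls, against 35.8, 36.3 and 43.2 CPM after TALE KD. The controls were close together, and TALE KD replicate 3 was the nearest to them. On the log2 scale the difference was -0.71 (standard error 0.078, 1.64-fold lower, adjusted p = 0.00239, edgeR). It kept its size with single libraries left out (-0.81 to -0.67), but the call then held only when the library left out was a replicate 3. Leaving out control replicate 1 gave an adjusted p of 0.0178 and leaving out control replicate 2 gave 0.0186, and for TALE KD replicates 1 and 2 the values were 0.0150 and 0.0213 (edgeR).

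The level of cyp26a1 was 84.5, 90.7 and 76.9 CPM in the controls at 12hpf, against 126.5, 120.0 and 101.0 CPM after TALE KD. All 3 TALE KD libraries lay above the controls, opposite to cyp26b1 and cyp26c1. The log2 fold-change of 0.45 (standard error 0.094, 95% interval 0.23 to 0.66, adjusted p = 0.0227, edgeR) was not called. With the replicate number as a block it passed the adjusted p (1.17e-04) but not the fold-change of 1.5. Over the 10 genes the groups did not overlap in 5. The TALE KD libraries lay below in 3 (cyp26b1, cyp26c1 and crabp2a), as for 15.8% of all genes, and above in 2 (aldh1a2 and cyp26a1), as for 16.9%.

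**Figure D2:**
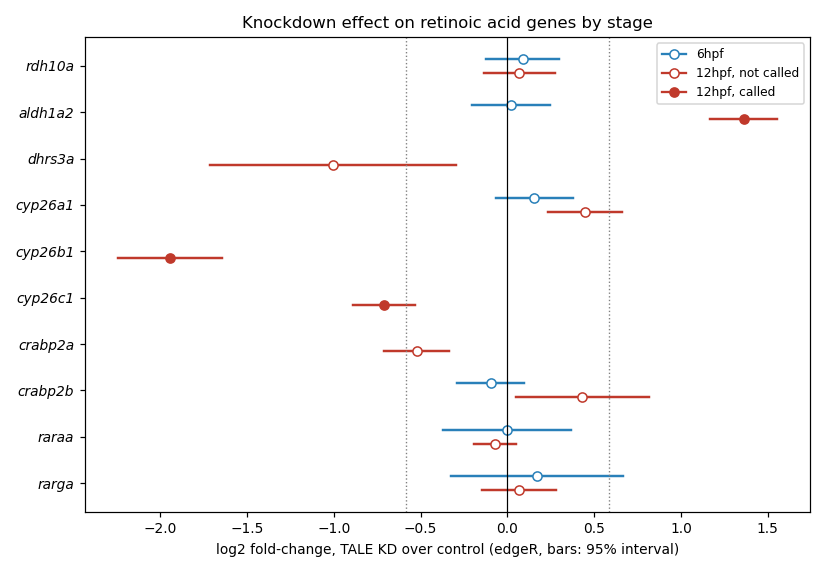
Log2 fold-change of TALE KD over control for each gene at 6hpf and 12hpf, with 95% intervals from the edgeR fit, filled where called and with dotted lines at a fold-change of 1.5. At 12hpf aldh1a2 lies at 1.36, cyp26b1 at -1.94 and cyp26c1 at -0.71, and the 6 genes tested at 6hpf lie between -0.096 and 0.17.

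The paralogs crabp2a and crabp2b, for cellular retinoic acid-binding proteins, differed in sign at 12hpf. The level of crabp2a was 142, 154 and 139.8 CPM in the controls, against 90.5, 102 and 114 CPM after TALE KD. Each TALE KD library was below each control, but the log2 fold-change of -0.52 (standard error 0.083) fell short of the fold-change threshold while passing the adjusted p (0.00844, edgeR). It was called in 1 of the 6 fits that left out a library, without TALE KD replicate 3, at -0.61 (adjusted p = 0.00107, edgeR). That fit called 472 of all genes, against 181 with all libraries. The other fits gave crabp2a an adjusted p of 0.0129 to 0.0521 (edgeR). For crabp2b the controls read 32.9, 31.4 and 46.7 CPM, against 47.0, 44.2 and 59.3 CPM after TALE KD. Replicate 3 was highest in both groups, which overlapped, and TALE KD was higher in 3 of 3 replicate pairs. The difference of 0.43 on the log2 scale (standard error 0.17, 95% interval 0.047 to 0.81, adjusted p = 0.143, edgeR) had an adjusted p of 2.54e-04 with the block, again under the fold-change threshold. RSEM assigns reads that match both paralogs of such a pair by estimate, which adds uncertainty to their counts.

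The receptor genes raraa and rarga read 74.4 ± 1.58 and 109 ± 11.4 CPM in the controls at 12hpf, against 71.6 ± 3.13 and 116 ± 10.8 CPM after TALE KD. For both the groups overlapped. The log2 fold-change was -0.070 for raraa (95% interval -0.19 to 0.050, adjusted p = 0.433, edgeR) and 0.069 for rarga (95% interval -0.14 to 0.28, adjusted p = 0.688, edgeR). These intervals lie within a 1.5-fold change in either direction.

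At 6hpf no difference between TALE KD and control was detected in any of these genes. Of the 10, 6 had enough counts to be tested. With edgeR 0 were called and 0 had an unadjusted p under 0.05, and DESeq2 called 0. Among the 10202 genes tested at this stage these shares were 0.0392% (0.0196% higher and 0.0196% lower), 5.66% and 0.275%. The level of aldh1a2 was 152, 164 and 131 CPM in the controls, against 159.5, 153 and 141 CPM after TALE KD. These groups overlapped (log2 fold-change 0.022, 95% interval -0.20 to 0.25, adjusted p = 0.998, edgeR). The other 5 log2 fold-changes ran from -0.096 for crabp2b to 0.17 for rarga, and their groups overlapped too, where 5.98% of all genes had TALE KD libraries wholly below and 5.06% wholly above the controls. The widest interval was that of rarga, -0.33 to 0.67, at 4.94 ± 0.912 CPM in controls, so a 1.5-fold change was not excluded for it. The gene cyp26c1 had 6 to 12 counts per library at 6hpf and was not tested. Those without a measurable level were dhrs3a and cyp26b1, with at most 1 count per library, and crabp2a, with at most 2.

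Between 6hpf and 12hpf all 10 genes changed in control embryos. The test over all 12 libraries called 6 higher and 4 lower at 12hpf, where 58.8% of the 11450 genes tested were called, 32.8% higher and 26.0% lower. The stages were deposited as separate tables, and anything shared by the libraries of a stage cannot be told apart from the stage. The median log2 change of all genes was 0.0866 with TMM factors and 0.326 with library totals alone. The genes called lower were aldh1a2, rdh10a, cyp26a1 and crabp2b. The largest drop was that of crabp2b, which stood at 279 ± 18.0 CPM and then 37.0 ± 8.44 CPM, or -2.92 on the log2 scale (adjusted p = 6.01e-10, edgeR). That of aldh1a2 was -1.76, of rdh10a -1.33 and of cyp26a1 -1.06. The genes called higher included rarga, from 4.94 ± 0.912 to 109 ± 11.4 CPM, and raraa, from 23.7 ± 3.63 to 74.4 ± 1.58 CPM. The level of cyp26c1 went from 0.786 ± 0.199 to 62.4 ± 1.15 CPM.

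For the genes near 0 counts at 6hpf only bounds or intervals can be given. Against a floor of 3 counts per library, cyp26b1 was at least 122-fold higher at 12hpf in control embryos and dhrs3a at least 58-fold higher. For crabp2a, with 5 counts in all 3 control libraries at 6hpf, the ratio was 1140 (95% counting interval 488 to 3510). The crabp2 genes thus ran in opposite directions over this period in controls, crabp2b down and crabp2a up.

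In TALE KD embryos 9 of the 10 genes were called between the stages, in the same directions as in controls, and the exception was aldh1a2. Of all genes, 56.6% were called, 31.5% higher and 25.1% lower. The level of aldh1a2 in TALE KD embryos went from 151 ± 9.15 CPM at 6hpf to 114 ± 8.64 CPM at 12hpf. In controls it went from 149 ± 16.9 to 44.1 ± 4.14 CPM. The log2 change in TALE KD embryos was -0.40 (standard error 0.095), which passed the adjusted p (0.00159, edgeR) but not the fold-change of 1.5, and with library totals alone it was -0.17 (adjusted p = 0.130). In order of level, both 6hpf groups were highest and overlapped, TALE KD embryos at 12hpf lay below them, and controls at 12hpf lay below all others. For rdh10a the changes in the 2 groups lay side by side, at -1.33 in TALE KD and -1.33 in control embryos.

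Whether the knockdown effect differed between the stages was tested as an interaction over the 12 libraries. Of the 10 genes 1 passed, aldh1a2, where 0.0349% of all genes passed. Its effect was larger at 12hpf by 1.35 on the log2 scale (standard error 0.14, 95% interval 1.06 to 1.65, adjusted p = 0.00107, edgeR). This was the smallest p-value of the 11450 genes, rank 1. It held with each of the 12 libraries left out, with differences of 1.28 to 1.44 and adjusted p of at most 0.00937. For cyp26a1 the difference was 0.31 (95% interval -0.0064 to 0.62, adjusted p = 0.588, edgeR) and for crabp2b 0.54 (adjusted p = 0.420, or 0.0244 with the block, edgeR). For cyp26c1, with few counts at 6hpf, it was -0.40 (95% interval -1.15 to 0.35, adjusted p = 0.831, edgeR), too wide to settle whether its effect differed. For dhrs3a, cyp26b1 and crabp2a the effect at 6hpf rests on almost no counts, so their difference between stages could not be measured.

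**Figure D3:**
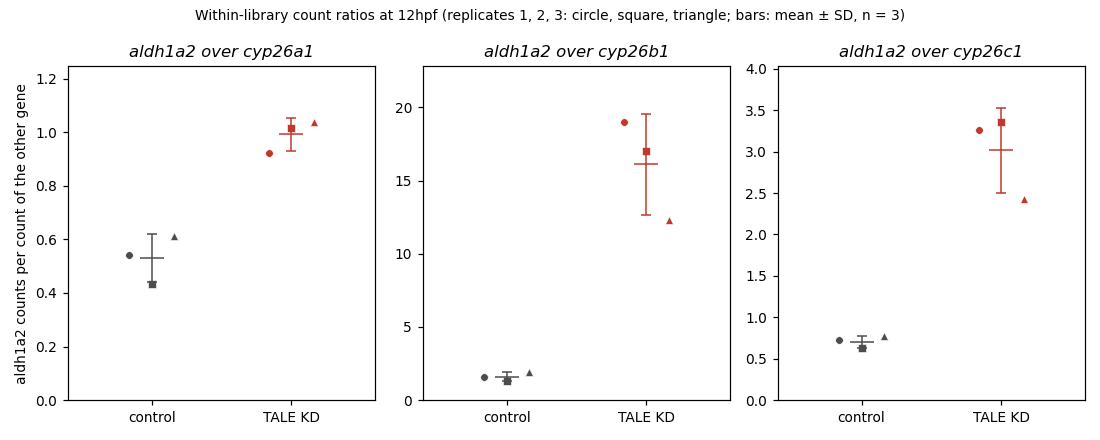
Counts of aldh1a2 per count of cyp26a1, cyp26b1 and cyp26c1 within each library at 12hpf (linear axes from 0, one scale per gene). Points are single libraries and bars are mean ± SD of 3; TALE KD libraries lie above control libraries in all 3 panels, at 12.3 to 19.0 against 1.30 to 1.92 for cyp26b1.

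Ratios within a library do not depend on how libraries are scaled to each other. At 12hpf aldh1a2 had 1.56, 1.30 and 1.92 counts per cyp26b1 count in the controls, against 19.0, 17.0 and 12.3 after TALE KD. Per cyp26c1 count it had 0.721, 0.627 and 0.771 in the controls, against 3.26, 3.36 and 2.43 after TALE KD. Per cyp26a1 count the values were 0.540, 0.434 and 0.613 in the controls, against 0.921, 1.01 and 1.04 after TALE KD. The groups did not overlap in any of these ratios, which all share aldh1a2. The levels of aldh1a2 and of the cyp26 genes did not overlap on their own either, so these ratios are not separate results. At 6hpf the ratio to cyp26a1 was 0.851 ± 0.0974 in control and 0.784 ± 0.108 in TALE KD libraries and overlapped. The values are not corrected for transcript length, so only their change between libraries can be read. The ratio of crabp2a to crabp2b at 12hpf was 4.07 ± 0.979 in control and 2.05 ± 0.220 in TALE KD libraries, also without overlap.

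Other genes of the pathway were also tested at 12hpf. Among 35 other genes for retinoid enzymes, binding proteins and transporters, 23 were listed under these symbols and 19 tested. Of these, 1 was called lower (1.26% of all genes) and 0 higher (0.292%). The median log2 fold-change was -0.025, against -0.00325 for all genes. An unadjusted p under 0.05 was found in 5 (27.1% of all genes). TALE KD lay wholly below controls in 5 (15.8% of all genes) and wholly above in 3 (16.9%). The gene called was rbp5, for a cellular retinol-binding protein, with 15, 16.7 and 15.1 CPM in the controls, against 7.60, 9.23 and 10.5 CPM after TALE KD. Every TALE KD library was below the controls (-0.78 on the log2 scale, standard error 0.12, adjusted p = 0.00811, edgeR), and the call was lost in all but 1 of the 6 fits that left out a library (adjusted p up to 0.0464). With the block 2 were called lower (3.31% of all genes), the second being lrata, for an enzyme that esterifies retinol. It stood at 0.865 ± 0.309 CPM in control and 0.276 ± 0.0881 CPM in TALE KD libraries (adjusted p = 0.00827, or 0.0326 without the block, edgeR). Its TALE KD libraries held only 8 to 10 counts.

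Among 17 genes for other receptors of the RAR and RXR families and their cofactors, 11 were listed and tested. With edgeR 0 were called and 5 had an unadjusted p under 0.05, as did 27.1% of all genes, and DESeq2 called 0. TALE KD lay wholly below controls in 1 (15.8% of all genes) and wholly above in 3 (16.9%). The smallest adjusted p belonged to ncor1, a corepressor, at 172 ± 4.56 CPM in the controls and 213 ± 6.93 CPM after TALE KD (0.30 on the log2 scale, adjusted p = 0.00811, edgeR), under the fold-change threshold. For the coactivator ncoa2 the log2 fold-change was 0.23 (adjusted p = 0.0538, edgeR).

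**Figure D4:**
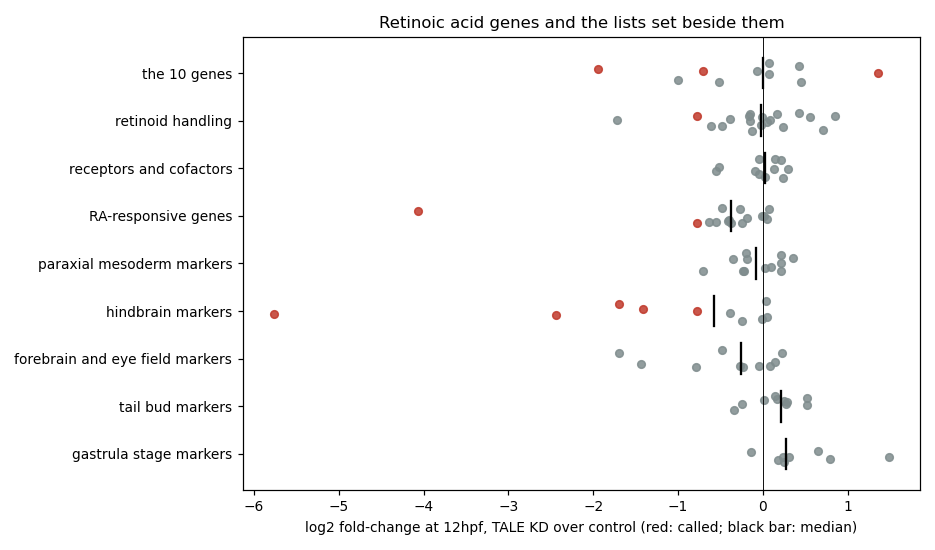
Log2 fold-change at 12hpf of the 10 genes and of the lists set beside them, 1 point per gene tested, red where called, with the median of each list as a black bar. The 10 genes have a median near 0 with calls on both sides, and the hindbrain markers have 5 genes called lower.

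Of 15 tested genes known to respond to retinoic acid, most of them Hox genes, 2 were called lower in TALE KD embryos at 12hpf, hoxb1a and hoxa1a, and 0 higher, where 1.26% of all genes were called lower. A log2 fold-change below 0 was found in 12, with a median of -0.38 against -0.00325 for all genes. TALE KD lay wholly below controls in 7 (15.8% of all genes) and wholly above in 1 (16.9%). An unadjusted p under 0.05 was found in 7 (27.1% of all genes, edgeR). With the block 3 were called lower, including hoxd4a, where 3.31% of all genes were. Several of these genes are also regulated with TALE cofactors, so the list does not report on retinoic acid alone. The level of hoxb1a, a marker of a single hindbrain segment, was 30.0 ± 0.829 CPM in the controls and 17.5 ± 3.28 CPM after TALE KD (-0.78 on the log2 scale, adjusted p = 0.00843, edgeR). For hoxa1a the TALE KD libraries held 1, 0 and 9 counts, against 34 to 48 in the controls. The early retinoic acid target hoxb1b stood at 135 ± 3.02 CPM in control and 136 ± 7.43 CPM in TALE KD libraries (adjusted p = 0.959, edgeR).

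Markers of the tissues in which these genes are known to be expressed differed between the groups to unequal degrees at 12hpf, and their part in the results was not tested. For paraxial mesoderm 0 of 12 markers were called by edgeR, and 8 had an unadjusted p under 0.05 (27.1% of all genes). The gene meox1 was called lower by DESeq2 (2.35% of all genes) and with the block (3.31%). The summed level of the 12 markers was 1041 to 1074 CPM in control and 999.7 to 1062 CPM in TALE KD libraries, which overlapped. This sum adds markers that differed both ways. TALE KD lay wholly below controls in 4 markers (15.8% of all genes) and wholly above in 3 (16.9%). The most abundant ones were tbx6 (216 ± 9.85 against 191 ± 17.1 CPM) and meox1 (170 ± 14.2 against 105 ± 25.2 CPM), both with a lower mean in TALE KD embryos. For the hindbrain 5 of 10 markers were called lower (egr2b, mafba, hoxa2b, hoxb2a and, as above, hoxb1a), where 1.26% of all genes were, and 0 higher. The study listed these 5 as lower in this experiment, among genes reported before to depend on Pbx or Prep. The hindbrain list thus does not report on the tissue alone. TALE KD lay wholly below controls in 7 of its 10 markers (15.8% of all genes) and wholly above in 0 (16.9%). The summed level was 549.6 to 577.6 CPM in control and 424.5 to 457 CPM in TALE KD libraries. Its most abundant markers, hoxb1b and epha4a, were not called (epha4a at 113 ± 5.45 against 118 ± 10.7 CPM).

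For forebrain and eye field 0 of 10 markers were called by edgeR, and 6 had an unadjusted p under 0.05 (27.1% of all genes). DESeq2 called 2 lower (2.35% of all genes) and the fit with the block 3 lower (rx1, rx2 and foxg1a, against 3.31%). The study listed rx2 as lower in this experiment, among genes reported before to depend on Pbx. This list too does not report on the tissue alone. The summed level was 427.6 to 456.6 CPM in control and 422 to 444.5 CPM in TALE KD libraries, which overlapped. This sum adds markers that differed both ways. TALE KD lay wholly below controls in 4 markers (15.8% of all genes) and wholly above in 1 (16.9%). The most abundant forebrain and eye field markers were six3b, at 140.5 ± 6.57 against 138 ± 3.03 CPM, and otx2, at 104 ± 7.03 against 123 ± 3.20 CPM. For the tail bud 0 of 10 tested were called by edgeR and 0 by DESeq2, and 6 had an unadjusted p under 0.05 (27.1% of all genes). A log2 fold-change above 0 was found in 8 (wnt8a and wnt8-2 hold identical counts). Its sums overlapped as well, at 913 to 1064 CPM in control and 938.6 to 1055 CPM in TALE KD libraries. These sums add markers that differed both ways and count wnt8a and wnt8-2 both. Of the 10 tested, TALE KD lay wholly above controls in 5 (16.9% of all genes) and wholly below in 2 (15.8%). Both wnt8a and wnt8-2 are counted among the 5 and among the 10. The most abundant tail bud markers were cdx4, at 435 ± 33.0 against 371 ± 23.0 CPM, and bambia, at 140 ± 13.2 against 159 ± 9.19 CPM. Genes chosen as most active in the gastrula were called lower between the stages in controls, 9 of 9 (26.0% of all genes). That fall follows from how these genes were chosen. At 12hpf 7 of 8 of them did not overlap between the groups, with TALE KD higher (16.9% of all genes), and 7 had an unadjusted p under 0.05 (27.1% of all genes). Of these genes edgeR called 0, DESeq2 2 higher (gsc and sox32, against 0.563% of all genes) and the fit with the block 3 higher (mixl1 as well, against 0.782%). Their summed level was 452.5 to 478 CPM in control and 524 to 575 CPM in TALE KD libraries. The most abundant were vox, at 135 ± 7.34 against 154 ± 9.41 CPM, and ved, at 127 ± 7.31 against 151 ± 7.62 CPM. No marker on these lists was at 0 in all libraries of a 12hpf group.

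As a description, the genes whose log2 CPM ran most like that of a called gene over all 12 libraries were listed by Pearson's r. The points share stage, depth and library, so r is high for many genes. For aldh1a2 these were tbce (0.970), ino80db (0.957) and dmap1 (0.954). For cyp26b1 they were hoxa9a (0.999), fga (0.997) and hoxd11a (0.997), and for cyp26c1 hs3st3b1b (0.999), hsp90aa1.1 (0.998) and a gene with a clone name.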

How the data were processed

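RNA-seq libraries of whole embryos were made in 3 replicates for each of 4 groups. The authors trimmed and filtered strand-specific reads, aligned them to the DanRer10 (GRCz10) transcriptome and quantified genes with RSEM 1.2.28. The deposited tables are named for TPM, but columns sum to between 11884805 and 40924982, and 75.4% to 80.0% of values are whole (within 0.005), which fits RSEM's estimated counts, and they were rounded. Tests used edgeR 4.0.16 (glmQLFit, glmQLFTest, TMM) in R 4.3.3, per stage over 10202 genes at 6hpf and 11640 at 12hpf, and over all 12 libraries for stage comparisons and the interaction. Standard errors came from the fold-change and F statistic, and intervals are 95%. P-values measure the spread between these replicate pools. Alternatives used DESeq2 1.42.0 and limma 3.58.1. The procedure was also run on simulated data with the same spread for every gene and no replicate effect, unlike these data.

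Replicate numbers are shared by the groups. Between libraries of the same number, deviations from group means correlated at 0.45, 0.33 and 0.49 at 6hpf for replicates 1, 2 and 3. At 12hpf these values were 0.32, 0.35 and 0.57. There replicates 1 and 2 also correlated across numbers (0.27 and 0.30), so the data set only replicate 3 apart. The block and the replicate pairs at 12hpf take replicates 1 and 2 as paired by number, which the data do not settle. The study's methods leave out 1 unnamed replicate at 12hpf, and all were kept here. The members and lists were chosen with earlier results of these data known. Genes are named as members, as list genes called (or the smallest adjusted p at 12hpf), as the most abundant 2 markers of a list, or as most alike (log2 CPM + 0.5). Other names were chosen after their values were seen. No sequences or coordinates were used here. A result for 1 gene of the lists is not reported here.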

Additional observations from a re-analysis of the deposited data

Results flagged for a closer look

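The knockdown effect on aldh1a2 differed between the stages by a test of the difference itself, at 1.35 on the log2 scale (adjusted p = 0.00107, edgeR interaction over 12 libraries). In 3 of 3 replicate pairs at 12hpf TALE KD was higher, by log2 ratios of 1.35, 1.63 and 1.15, against 0.068, -0.10 and 0.11 at 6hpf. No other of the 10 genes was singled out in this way. Single values were not screened for outlying libraries, because the criterion used needs at least 4 libraries in a group, and replicate 3 stood apart over all genes at 12hpf as described.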

How the results depend on the processing

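The calls of aldh1a2 and cyp26b1 at 12hpf held under every alternative run, and the stage difference of aldh1a2 likewise. At 12hpf the number of the 10 genes called was 3 with all libraries, 2 to 5 with each library left out, and 5 without replicate 3 of both groups, when crabp2a (-0.62) and dhrs3a (-1.16) were added. With DESeq2 and with the replicate block dhrs3a was added. Over all genes at 12hpf 181 were called, 326 with DESeq2, 476 with the replicate block, 729 without replicate 3 of both groups and 20 to 472 with each library left out. At 6hpf 4 were called, 28 with DESeq2, 2 with limma-voom, 10 without the count filter, 23 with the replicate block and 0 to 1 with each library left out, and none of the 10 genes was among those called in any of these fits. The block changed no call of the 10 genes but that of dhrs3a.

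Signs turned only for differences near 0. At 12hpf the lowest and highest log2 fold-changes with each library left out were -0.0063 and 0.15 for rdh10a and -0.013 and 0.14 for rarga, and at 6hpf -0.065 and 0.10 for aldh1a2 and -0.092 and 0.14 for raraa. For the difference between stages they were -0.083 and 0.084 for rdh10a, -0.20 and 0.030 for raraa and -0.25 and 0.080 for rarga. For rdh10a it was -0.0024, and 0.00022 with RLE size factors, 0.00012 with DESeq2 and 0.00081 without the count filter. With library totals alone the changes from 6hpf to 12hpf moved up, by less for genes near 0 counts at 6hpf, and calls higher made up 66.5% in control and 66.8% in TALE KD embryos, against 55.8% and 55.6%. The call of cyp26a1 in TALE KD embryos was then lost (-0.52, against -0.75). At 6hpf counts of 0 to 12 per library limit what can be said of dhrs3a, cyp26b1, cyp26c1 and crabp2a.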

Other observations

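The direct paralogs of 4 of these genes, looked at after their values were seen, gave no call at 12hpf. The retinol dehydrogenase gene rdh10b was at 106 ± 2.33 CPM in control and 113 ± 8.79 CPM in TALE KD libraries (log2 fold-change 0.078, adjusted p = 0.473, edgeR). For dhrs3b the levels were 93.0 ± 7.95 and 111 ± 16.5 CPM (log2 fold-change 0.24, adjusted p = 0.216, edgeR), a sign opposite to that of dhrs3a. The receptor genes rarab, at 127 ± 6.43 against 120.0 ± 6.55 CPM, and rargb, at 2.48 ± 0.212 against 2.44 ± 0.214 CPM, overlapped between the groups.

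The nuclear receptor gene nr2f5, among the genes known to respond to retinoic acid, read 269, 276 and 308 CPM in the controls at 12hpf, against 174, 182 and 229.9 CPM after TALE KD. The groups did not overlap and differed by -0.55 on the log2 scale (adjusted p = 0.0167, edgeR, and 1.79e-05 with the replicate block), just under a 1.5-fold change. Replicate 3 was the highest library of both groups. It was named after its values were seen.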
